A study of Mus musculus with 12 samples.

Results

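Regulatory T cells (Treg) of the spleen that carry a deleted Foxp3 gene (∆Foxp3) were compared with spleen Treg whose Foxp3 gene is intact (WT), in 6 of the 12 RNA libraries of the series, 3 of each genotype. The members are the 6 libraries whose titles name spleen Treg, and every gene that passed the low-count filter was tested, 13295 of the 55011 in the table. Both groups came from C57BL/6 males 21 days old, and 1000 cells per library were sorted as DAPI-negative CD25+ GFP+ cells with CD4 and TCRβ on their surface and then copied and amplified by Smart-seq2, a full-length method for small numbers of cells. The WT mice carried Foxp3.ires.GFP, an intact gene followed by a green reporter, and the labels list no Cre and no YFP allele for them. The spleen ∆Foxp3 mice are labelled [delta]Foxp3.EGFP.iCre X R26.YFP, a deleted Foxp3 allele whose name lists EGFP and iCre, crossed to a YFP reporter at the Rosa26 locus, while the protocol text names only a ∆Foxp3.ires.GFP allele for this genotype. Foxp3 deletion, the Cre and YFP alleles and the host animal therefore differ between the groups together and cannot be told apart. Whether the 3 libraries of a genotype stem from different mice is not stated in the labels. The p-values then reflect library-to-library spread alone, part of which may be technical.

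As background, Foxp3 is the X-linked forkhead transcription factor that fixes the identity of Treg, the CD4 T cells that hold other lymphocytes in check. It works with partner factors on DNA, keeps up genes for the high-affinity IL-2 receptor and for CTLA-4, and holds down cytokine genes. A Foxp3 gene that has lost its protein but keeps a reporter still marks the cells that switch the locus on. Males without Foxp3 protein are known to develop inflammation in many organs.

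Library totals were 4366199 to 9025150 counts, 19618 to 21697 genes had at least 1 count, and 3 counts in a library corresponded to 0.334 to 0.719 CPM, counts scaled by library size. Mitochondrial genes took 1.40% to 1.61% of counts. The pair of genes Gm10800 and Gm10801, singled out after their values were seen, took 0.112% in WT 1 and 0.743% to 1.93% in the other 5 libraries, and haemoglobin genes took 0.0359% in ∆Foxp3 1 and at most 0.00161% in the others. Values below are CPM scaled by edgeR's TMM factors. Differences are ∆Foxp3 minus WT on the log2 scale, ± the standard error of the fit, with 3 libraries against 3. Adjusted p-values come from edgeR's quasi-likelihood F test with Benjamini-Hochberg adjustment over the 13295 genes, with calls made at an adjusted p under 0.05. Of the genes tested, 1878 (14.1%) were called higher in ∆Foxp3 and 1662 (12.5%) lower, together 26.6%, and the WT and ∆Foxp3 libraries did not overlap for 38.2% of genes. The median difference over all tested genes was -0.02. Of the called genes, 684 rose and 386 fell by more than 2 on the log2 scale, that is more than 4-fold. Among the calls, 52 genes that rose had no count in any WT library and 11 that fell had none in any ∆Foxp3 library. Gene lists below are described by their counts beside these shares, with no test of a list. Counts of at most 2 members of a list came to 0 to 3 with single libraries left out.

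Rosa26, the locus named in the label of the spleen ∆Foxp3 mice, was looked at through its own transcript. Whether a reporter at this locus changes that transcript was not tested. Gt(ROSA)26Sor, the noncoding transcript of the Rosa26 locus into which such reporters are inserted (chromosome 6, 113067428 to 113077333, GRCm38), was at 74.4, 61.6 and 40.6 CPM in the WT libraries and 1.09, 0.479 and 1.29 CPM in the ∆Foxp3 libraries. Every ∆Foxp3 library lay far below every WT library, and the transcript fell by 5.85 ± 0.43 (adjusted p = 1.15e-06), the lowest difference among called genes with a mean of at least 10 CPM and no overlap between the groups. The lung libraries held 7.54, 15.03 and 16.3 CPM (WT) and 23.1, 19.8 and 18.8 CPM (∆Foxp3, whose label, [delta]Foxp3.ires.GFP, names no Rosa26 reporter). The differences in the 2 tissues themselves differed by -6.51 ± 0.54 (adjusted p = 5.54e-05). Of all tested genes, 0.925% differed in this way between spleen and lung. Foxp3 itself (chromosome X, 7573644 to 7595245) was at 1026, 991 and 1096 CPM in the WT libraries and 159, 114 and 227 CPM in the ∆Foxp3 libraries and fell by 2.64 ± 0.29 (adjusted p = 2.93e-05). Its reads were thus fewer and still present in every ∆Foxp3 library. A count per gene does not show which exons they cover, so fewer transcripts and transcripts that lack exons cannot be told apart.

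Of the 7 markers of the sorted cells, 5 were called lower and 1 higher. Those lower were Foxp3, Il2ra, Ikzf2, Ctla4 and also Cd3e, a general T cell marker of the receptor complex. Their levels summed to 5087 to 5593 CPM per WT library and 3237 to 3528 CPM per ∆Foxp3 library. Cd4, the co-receptor, was at 718, 604 and 626 CPM in WT and 801, 878 and 855 CPM in ∆Foxp3 libraries and rose by 0.38 ± 0.12 (adjusted p = 0.0245), a call that was lost without WT 2, WT 3 or ∆Foxp3 2 (adjusted p = 0.102 without WT 2, 0.0772 without WT 3 and 0.0587 without ∆Foxp3 2). Trac, the constant segment of the T cell receptor α chain, was at 817, 606 and 600.1 against 570.1, 571 and 545 CPM, a difference of -0.26 ± 0.14 (adjusted p = 0.183). Cd8b1, of CD8 T cells, was at 22.6, 26.3 and 20.5 CPM in WT and 25.4, 20.6 and 12.3 CPM in ∆Foxp3 libraries, and Ncr1 and Klra8, genes of natural killer cells, had no count in any of the 6 libraries. Over the 6 libraries, Mzb1 of plasma cells had no count, and Ms4a1 of B cells had 1 count. Other members of these lists did differ. Of 5 tested markers of B and plasma cells 3 were called lower. Of 6 tested markers of CD8, NK and γδ T cells 1 was called higher, and both lists are described further below.

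**Figure D1:**
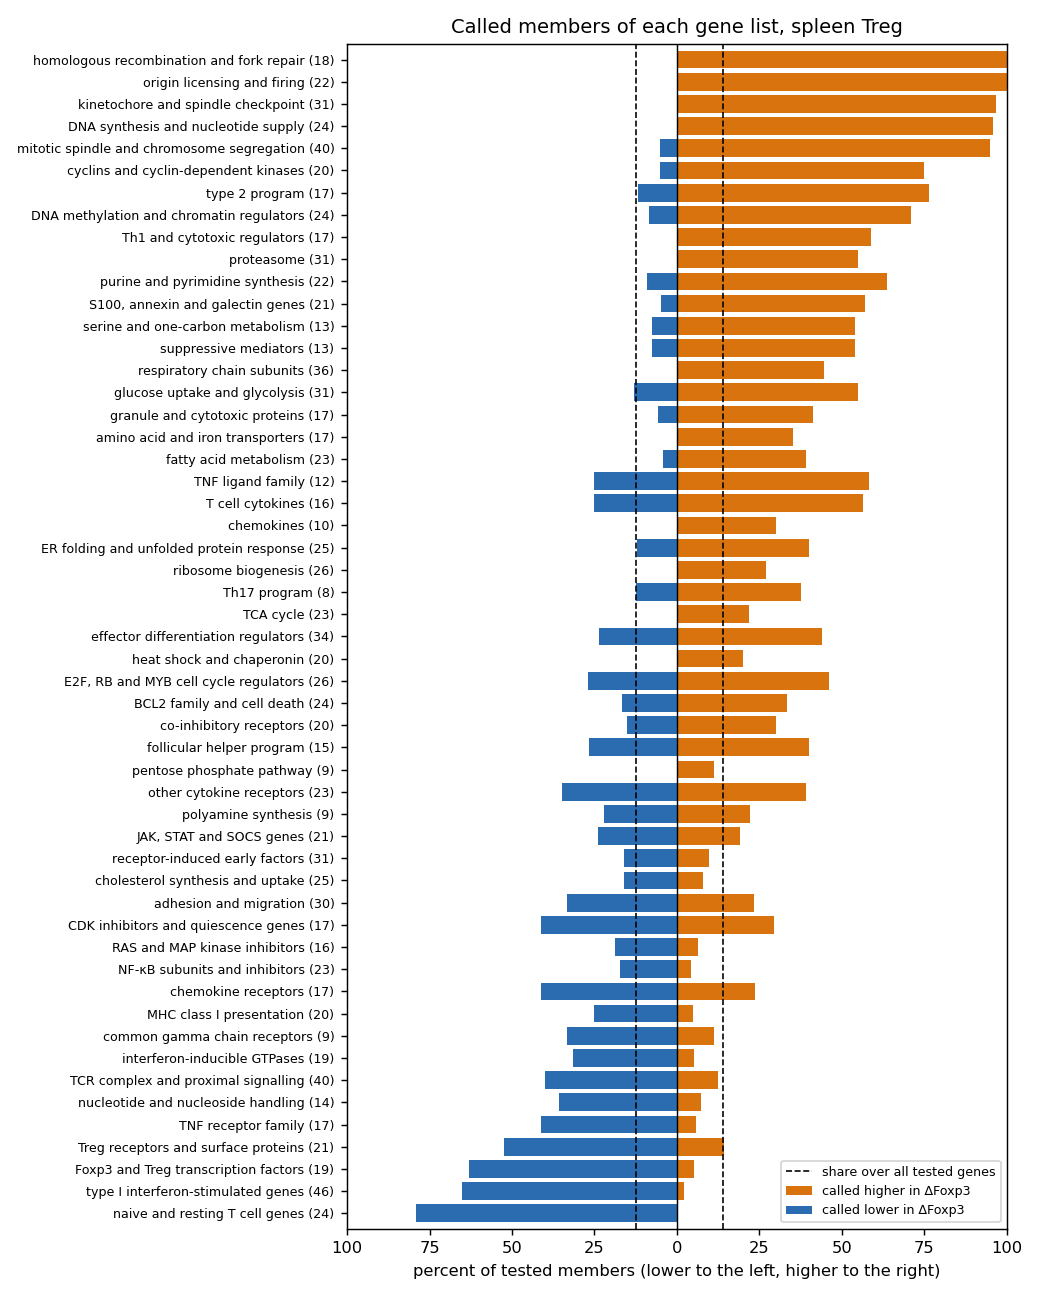
Share of each gene list called higher (right, orange) or lower (left, blue) in ∆Foxp3 than in WT spleen Treg, as a percent of the tested members, whose number stands behind each name. Dashed lines mark the shares over all tested genes, 14.1% higher and 12.5% lower. Lists of DNA replication and mitosis lie far to the right, and naive T cell, interferon-stimulated and Treg identity lists to the left.

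The transcription factors that mark Treg were mostly lower. Of 19 tested members of this list, 12 fell and 1 rose, with a median difference of -0.77. In bulk libraries fewer cells of a kind and less RNA per cell cannot be told apart, here and below. Foxo1, a forkhead factor of resting T cells that Treg need for their function, was at 134, 162 and 174 CPM in the WT libraries and 31.3, 42.9 and 32.6 CPM in the ∆Foxp3 libraries. The ∆Foxp3 libraries lay together, far below the WT libraries, and Foxo1 fell by 2.14 ± 0.19 (adjusted p = 4.59e-06). Bach2, a repressor that restrains effector differentiation, was at 85.2, 82.4 and 80.5 CPM in WT and 26.9, 18.2 and 10.8 CPM in ∆Foxp3 libraries and fell by 2.16 ± 0.31 (adjusted p = 1.49e-04). Foxp1, the forkhead relative that can bind beside Foxp3, fell by 1.66 ± 0.22 (adjusted p = 7.71e-05). Rel, the NF-κB subunit c-Rel that opens the Foxp3 locus, fell by 1.36 ± 0.35 (adjusted p = 0.0119). Ikzf2, which encodes Helios and marks Treg made in the thymus, was at 859, 757 and 701 CPM in WT and 465, 484 and 346 CPM in ∆Foxp3 libraries and fell by 0.84 ± 0.17 (adjusted p = 0.00181). Runx1 and Nfatc2, partners of Foxp3 on DNA, overlapped between the groups, with differences of 0.01 ± 0.17 (adjusted p = 0.963) and -0.18 ± 0.21 (adjusted p = 0.562). Gata3, which Treg share with type 2 helper cells, was the list's 1 rise, 516, 351 and 401 CPM in WT and 440.4, 1059 and 722 CPM in ∆Foxp3 libraries. Its groups overlap, and its rise of 0.81 ± 0.24 (adjusted p = 0.0223) was lost without WT 2, WT 3 or ∆Foxp3 2 (adjusted p = 0.0902 without WT 2, 0.0697 without WT 3 and 0.124 without ∆Foxp3 2).

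Of the 21 tested surface proteins of Treg, 11 fell, 3 rose and 7 did not pass the test. Lrrc32 encodes GARP, which docks latent TGF-β on the Treg surface, and Itgb8 encodes the integrin chain that releases it. Lrrc32 was at 182, 376 and 387 CPM in the WT libraries and 48.96, 36.7 and 35.2 CPM in the ∆Foxp3 libraries, and Itgb8 at 26.7, 19.8 and 23.8 against 3.72, 4.31 and 3.73 CPM. Both stood apart in every library, and fell by 2.97 ± 0.44 and 2.58 ± 0.45 (adjusted p = 4.49e-04 and 7.72e-04). Nt5e, which encodes CD73, the enzyme that makes adenosine outside the cell, fell by 2.01 ± 0.51 (adjusted p = 0.0119). Its call was lost in the same F test with no low-count filter (adjusted p = 0.100). Izumo1r, the folate receptor 4 of Treg, was at 1091, 1082 and 1092 CPM in WT and 449.6, 376 and 318 CPM in ∆Foxp3 libraries and fell by 1.51 ± 0.26 (adjusted p = 8.12e-04). Gpr83, an orphan receptor of the Treg signature, was at 502, 679 and 569 against 207, 61.1 and 66.9 CPM. It fell by 2.39 ± 0.77 (adjusted p = 0.0424), and fell by 3.15 without ∆Foxp3 1. The call was lost when any other library was left out (adjusted p = 0.0892 to 0.164 without WT 1, WT 2, WT 3, ∆Foxp3 2 and ∆Foxp3 3). Il2ra, the gated CD25 chain of the IL-2 receptor, was at 719, 897 and 766 CPM in WT and 237, 504 and 435 CPM in ∆Foxp3 libraries and fell by 1.02 ± 0.23 (adjusted p = 0.00531). Ctla4, the inhibitory receptor of CD80 and CD86, was at 527, 485 and 430.2 against 265, 285 and 316 CPM and fell by 0.74 ± 0.17 (adjusted p = 0.00552). Tnfrsf4 (OX40), Nrp1 (neuropilin 1) and Entpd1 (CD39) overlapped between the groups, at -0.24 ± 0.28 (adjusted p = 0.569), 0.26 ± 0.20 (adjusted p = 0.374) and 0.02 ± 0.24 (adjusted p = 0.966). Tigit and Il1rl1 (ST2, the IL-33 receptor), both known from activated and tissue Treg, went the other way: Tigit was at 156, 156 and 138 CPM in WT and 572, 348 and 590.03 CPM in ∆Foxp3 libraries and rose by 1.74 ± 0.18 (adjusted p = 1.32e-05), and Il1rl1 rose by 2.19 ± 0.32 (adjusted p = 2.45e-04).

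In the list of mediators through which Treg act on other cells, higher members were more common. Of 13 tested mediators, 7 rose and 1, Ctla4, fell. Lrrc32, Itgb8 and Nt5e, given above as lower, also serve such actions and were not part of this list, so its counts depend on how it was drawn. Lag3, an inhibitory receptor for MHC class II, was at 17.04, 30.4 and 49.5 CPM in the WT libraries and 189.9, 313 and 230.02 CPM in the ∆Foxp3 libraries and rose by 2.92 ± 0.32 (adjusted p = 2.62e-05). Fgl2, a secreted fibrinogen-like suppressor, rose by 2.02 ± 0.38 (adjusted p = 0.00198). Ebi3, a subunit of IL-35 and IL-27, was at 29.5, 23.9 and 16.8 against 72.4, 85.3 and 57.5 CPM and rose by 1.61 ± 0.27 (adjusted p = 5.45e-04). Il10, the anti-inflammatory cytokine, was at 12.6, 10.2 and 12.5 CPM in WT and 20.3, 108 and 40.8 CPM in ∆Foxp3 libraries. The highest value is that of ∆Foxp3 2. Its rise of 2.25 ± 0.57 (adjusted p = 0.0125) was 1.38 without ∆Foxp3 2, and the adjusted p was 0.0517 without WT 2 and 0.0524 without ∆Foxp3 2.

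**Figure D2:**
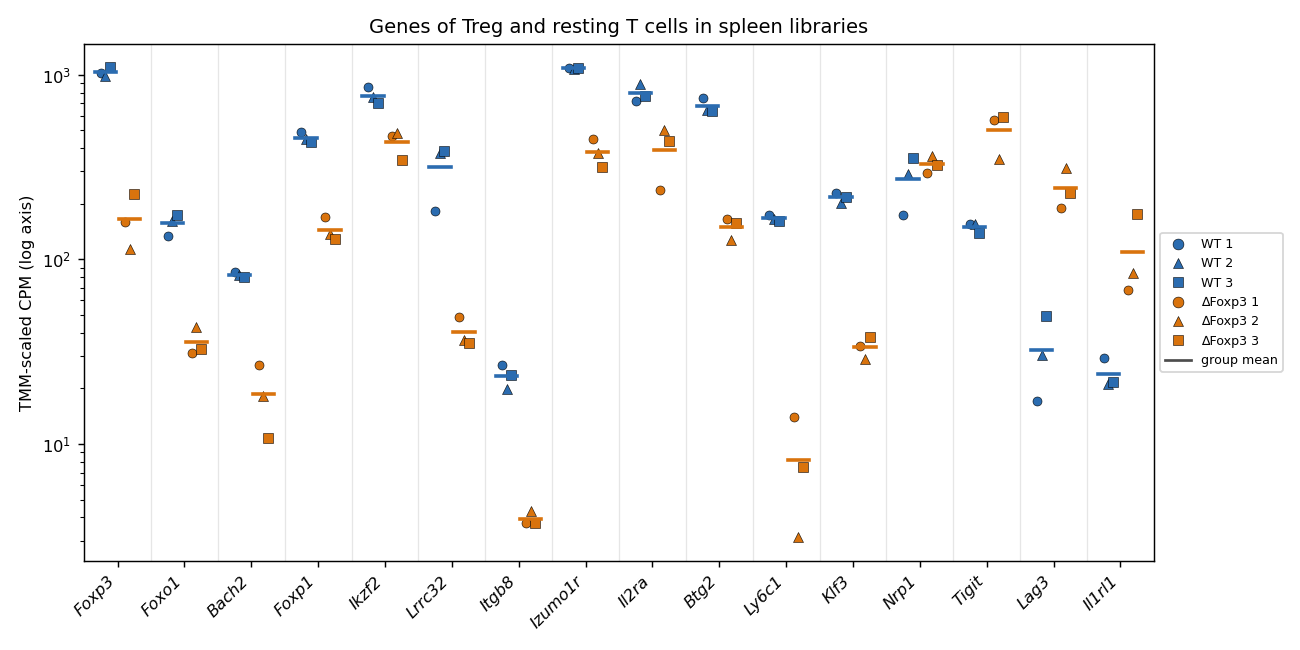
Level of 16 genes of Treg and resting T cells in each spleen library, in TMM-scaled CPM on a log axis, with WT libraries in blue and ∆Foxp3 libraries in orange and a bar at each group's mean. Foxp3, Foxo1, Bach2, Lrrc32, Klf3 and Ly6c1 lie lower in all 3 ∆Foxp3 libraries, while Tigit, Lag3 and Il1rl1 lie higher.

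Genes of naive and resting T cells were lower as a group. Of 24 tested members, 19 fell and 0 rose, and the median difference was -1.96. Ly6c1, a surface protein of resting memory and naive T cells, was at 175, 165 and 162 CPM in WT and 13.99, 3.12 and 7.46 CPM in ∆Foxp3 libraries and fell by 4.35 ± 0.44 (adjusted p = 1.70e-05). The WT values lay within a narrow band, and every ∆Foxp3 value was far below them. Klf3, a repressor of the Krüppel-like family, was at 229, 203 and 218 against 34.1, 28.8 and 37.9 CPM and fell by 2.68 ± 0.25 (adjusted p = 7.06e-06). Id3, which blocks E proteins and keeps T cells undifferentiated, fell by 2.76 ± 0.17 (adjusted p = 3.67e-07). Btg1 and Btg2, factors that shorten messenger tails and keep T cells quiescent, were at 219, 169.5 and 155 against 90.3, 59.9 and 69.3 CPM and at 744, 645 and 633 against 166, 127 and 158 CPM, and fell by 1.31 ± 0.23 and 2.17 ± 0.23 (adjusted p = 8.72e-04 and 1.32e-05). Tob1, another antiproliferative protein of quiescent T cells, fell by 3.43 ± 0.53 (adjusted p = 2.85e-04), and fell by 4.03 without ∆Foxp3 1. Ccr7, the receptor that leads T cells to the T zone, was at 809.6, 745 and 635 CPM in WT and 389, 263 and 155 CPM in ∆Foxp3 libraries. All of its ∆Foxp3 libraries were below all WT libraries, and it fell by 1.44 ± 0.46 (adjusted p = 0.0353). The call was lost when any library other than ∆Foxp3 1 was left out (adjusted p = 0.0694 to 0.138 without WT 1, WT 2, WT 3, ∆Foxp3 2 and ∆Foxp3 3). Tcf7, the factor TCF-1, did not pass the test, at -0.58 ± 0.21 (adjusted p = 0.0539). Il7r, the IL-7 receptor chain of resting cells, was at 212, 286 and 243 CPM in WT and 399.6, 121 and 680.00 CPM in ∆Foxp3 libraries, where ∆Foxp3 2 lay below and the other 2 above all WT libraries (0.70 ± 0.46, adjusted p = 0.292; 1.13 without ∆Foxp3 2 (adjusted p = 0.0177) and 0.08 without ∆Foxp3 3).

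Receptors for homing and adhesion shifted in both directions. Of 30 tested, 10 fell and 7 rose. Pecam1 and Icam2, adhesion proteins of resting lymphocytes and endothelium, fell by 1.35 ± 0.17 and 1.29 ± 0.20, and Itga6, the laminin-binding α6 integrin, was at 82.1, 94.9 and 98.6 CPM in WT and 24.7, 15.3 and 22.7 CPM in ∆Foxp3 libraries and fell by 2.13 ± 0.23 (adjusted p = 1.61e-05). Itgb1, the β1 integrin chain of collagen and fibronectin receptors, moved the other way, at 35.4, 71.5 and 86.6 CPM in the WT libraries and 315, 386 and 676 CPM in the ∆Foxp3 libraries. It rose by 2.84 ± 0.41 (adjusted p = 3.35e-04). Itgal, the α chain of LFA-1, was at 347, 412 and 542 against 908, 825 and 777 CPM and rose by 0.95 ± 0.15 (adjusted p = 4.34e-04). Gcnt1 and Fut7 encode enzymes that build the sugar ligands of the endothelial selectins. Gcnt1 was at 1.67, 0.715 and 0.926 CPM in WT and 27.8, 90.4 and 44.2 CPM in ∆Foxp3 libraries and rose by 5.52 ± 0.60 (adjusted p = 2.21e-05), and Fut7 rose by 2.19 ± 0.48 (adjusted p = 0.00420), or by 1.59 without ∆Foxp3 2. Cd44, the hyaluronan receptor of activated T cells, did not pass (0.44 ± 0.16, adjusted p = 0.0582; 0.53 without WT 1 (adjusted p = 0.0435) and 0.54 without WT 3 (adjusted p = 0.0456)), nor did Selplg, the selectin ligand itself (-0.24 ± 0.15, adjusted p = 0.267; -0.42 without ∆Foxp3 3 (adjusted p = 0.0286)).

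The chemokine receptors divided likewise, with 7 of 17 lower and 4 higher; the number lower was 4 without WT 1, 4 without ∆Foxp3 2 and 4 without ∆Foxp3 3, and the number higher 2 without WT 3 and 2 without ∆Foxp3 2. Cxcr5, which leads to B cell follicles, was at 50.1, 40.02 and 44.6 against 12.5, 11.99 and 1.43 CPM, and Ccr9, which leads to the small intestine, at 41.8, 48.95 and 45.4 against 16.8, 13.7 and 1.72 CPM. They fell by 2.42 ± 0.54 and 2.12 ± 0.57 (adjusted p = 0.00479 and 0.0150), and ∆Foxp3 3 was the lowest library for both. Ccr4, a receptor of skin-homing and activated Treg, fell by 1.02 ± 0.25 (adjusted p = 0.00694). Cxcr6, the receptor for the membrane-bound chemokine CXCL16 that holds T cells in inflamed tissue, was at 0, 6.61 and 6.94 CPM in the WT libraries and 303, 353 and 430.2 CPM in the ∆Foxp3 libraries. It rose by 6.42 ± 0.70 (adjusted p = 6.88e-05), or by 5.77 without WT 1. Cxcr6 lies on chromosome 9 from 123806475 to 123811760, between Ccr9 (123678439 to 123784330) and Xcr1 (123852315 to 123862029), so a gene that fell and 2 that rose stand side by side. Xcr1, at 0, 0 and 0.617 against 3.72, 6.23 and 6.74 CPM, rose by 4.68 ± 0.89 (adjusted p = 0.00138), or by 4.04 without WT 1 and 7.89 without WT 3. Xcr1 is also on the marker list of macrophages, monocytes and dendritic cells, described below. Whether its reads come from Treg or from such cells was not tested.

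Among the regulators of effector differentiation, 15 of 34 rose and 8 fell, the latter number being 5 without ∆Foxp3 1. Id2, the inhibitor of E proteins that opposes Id3 in effector cells, was at 59.5, 21.8 and 24.8 CPM in the WT libraries and 442, 402 and 683 CPM in the ∆Foxp3 libraries. Id2 rose by 3.83 ± 0.36 (adjusted p = 1.16e-05), or by 4.49 without WT 1. Epas1, the hypoxia-inducible factor HIF-2α, was at 3.56, 0 and 1.70 CPM in the WT libraries and 153, 263 and 229 CPM in the ∆Foxp3 libraries. From almost no signal in WT to over 150 CPM in every ∆Foxp3 library, it rose by 6.77 ± 0.78 (adjusted p = 9.96e-05), or by 7.90 without WT 1, while its relative Hif1a overlapped between the groups (0.28 ± 0.27, adjusted p = 0.488). Vdr, the vitamin D receptor, was at 4.34, 2.50 and 0.463 against 52.5, 140.2 and 131 CPM and rose by 5.39 ± 0.64 (adjusted p = 9.01e-05), or by 6.26 without WT 1. Bhlhe40, which supports cytokine production, was at 64.2, 14.5 and 17.9 against 289, 376 and 322 CPM and rose by 3.33 ± 0.66 (adjusted p = 0.00404), or by 4.38 without WT 1. Runx2 and Ahr, the ligand-bound aryl hydrocarbon receptor, rose by 2.71 ± 0.33 (adjusted p = 4.08e-05) and by 2.66 ± 0.45 (adjusted p = 6.11e-04). Maf, the c-Maf factor of type 2, follicular and IL-10-producing cells, was at 65.4, 61.3 and 64.5 CPM in WT and 170.3, 208 and 281 CPM in ∆Foxp3 libraries and rose by 1.79 ± 0.19 (adjusted p = 1.30e-05). Batf, the AP-1 factor of effector T cells, rose by 1.02 ± 0.22 (adjusted p = 0.00320). Tox, known from exhausted T cells, and Rara, the retinoic acid receptor α, fell by 1.21 ± 0.18 and 1.71 ± 0.22 (adjusted p = 2.18e-04 and 6.88e-05). Irf4, a factor of effector Treg, did not pass, at 11.2, 43.9 and 58.9 against 67.1, 151 and 62.8 CPM (1.30 ± 0.51, adjusted p = 0.0808; 1.78 without WT 3 (adjusted p = 0.0493)).

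The helper programs did not move alike. For type 1 and cytotoxic regulators, 10 of 17 rose and 0 fell. For the type 2 program, 13 of 17 rose and 2 fell, a number higher that was 8 without WT 2 and 8 without WT 3. For the follicular helper program 6 of 15 rose and 4 fell. For type 17, 3 of 8 rose and 1 fell, and its defining genes Il17a, Il17f, Il22 and Il23r were too low to be tested. Il18rap, the accessory chain of the IL-18 receptor, was at 13.7, 12.9 and 10.6 CPM in the WT libraries and 199.6, 76.7 and 359 CPM in the ∆Foxp3 libraries and rose by 4.09 ± 0.57 (adjusted p = 2.85e-04), or by 3.48 without ∆Foxp3 3. Il12rb2, the inducible IL-12 receptor chain of type 1 cells, was at 0, 1.25 and 0.617 against 19.9, 11.3 and 5.88 CPM and rose by 4.39 ± 0.94 (adjusted p = 0.00358), or by 3.74 without WT 1 and 5.38 without WT 2. Its call was lost with limma voom, an alternative test (adjusted p = 0.0504). Stat4, which carries the IL-12 signal, gave 0.36 ± 0.18 (adjusted p = 0.147). Nfil3, a leucine zipper factor of the type 2 list, was at 0.668, 1.61 and 2.47 against 11.8, 33.6 and 25.7 CPM and rose by 3.93 ± 0.49 (adjusted p = 4.55e-05). Of the follicular program, Il6ra, Cxcr5 and Tox fell, whereas Pdcd1 (PD-1) at 89.99, 79.3 and 76.4 against 295, 291 and 161 CPM rose by 1.60 ± 0.28 (adjusted p = 8.21e-04), Tox2 rose by 3.27 ± 0.48 (adjusted p = 1.91e-04) and Cd40lg, the helper ligand CD40L, rose by 2.12 ± 0.41 (adjusted p = 0.00202).

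Several cytokine genes differed widely among the ∆Foxp3 libraries. Of 16 tested cytokines, 9 rose and 4 fell, a number higher that was 4 without WT 2, 5 without WT 3 and 5 without ∆Foxp3 2. The median difference was 2.16, also with the 4 genes that had no count in WT at their bound. Il4, which drives type 2 responses, had no count in any WT library and 19.02, 110.3 and 34.3 CPM in the ∆Foxp3 libraries, at least 351-fold higher against 3 counts over the WT group (adjusted p = 5.15e-04), or 198-fold without ∆Foxp3 2. Il5, the eosinophil growth factor, had none in WT and 1.31, 52.3 and 8.75 CPM, at least 127-fold higher, or 40.7-fold without ∆Foxp3 2. The call of Il5 (adjusted p = 0.0413) was lost when any library but ∆Foxp3 1 was left out (adjusted p = 0.0681 to 0.137 without WT 1, WT 2, WT 3, ∆Foxp3 2 and ∆Foxp3 3). Il21, a cytokine of follicular helper cells, had 1 count in WT and 13.6, 48.7 and 1.58 CPM in the ∆Foxp3 libraries, a pooled ratio of 369.8-fold (exact 95% interval 65.8 to 14659), or 133-fold without ∆Foxp3 2 and 638-fold without ∆Foxp3 3, and 212-fold without WT 1 and at least 90.5-fold without WT 2 (adjusted p = 9.99e-04). Such intervals and bounds cover counting error only. Each bound against WT counts of 0 is 1.74-fold lower without WT 1, which holds 42.6% of the scaled WT counts. Lif, the leukaemia inhibitory factor, was at 0.668, 5.002 and 2.78 against 17.9, 49.9 and 13.3 CPM and rose by 3.30 ± 0.67 (adjusted p = 0.00249), or by 4.01 without WT 2 and 2.52 without ∆Foxp3 2. Csf1, the growth factor of macrophages, was at 4.46, 9.11 and 20.7 against 34.97, 58.97 and 45.3 CPM and rose by 2.03 ± 0.45 (adjusted p = 0.00418), or by 2.80 without WT 3. For Il4, Il5, Il21 and Lif the same library, ∆Foxp3 2, was the highest, and ∆Foxp3 1 or ∆Foxp3 3 the lowest.

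Among the secreted chemokines the same library was the highest for Ccl1 and Xcl1. Of 10 tested, 3 rose and 0 fell, the number higher being 1 without WT 2, 0 without WT 3 and 5 without ∆Foxp3 3, and the median difference was 3.20. Setting the 3 members without a WT count to their bound gave 2.79. Ccl1, the ligand of CCR8, had no count in WT and 33.4, 208 and 3.73 CPM in the ∆Foxp3 libraries, at least 467-fold higher, or 109-fold without ∆Foxp3 2 and 818-fold without ∆Foxp3 3 (adjusted p = 0.0209; 0.0859 without WT 1 and 0.0629 without WT 3). Xcl1, which attracts XCR1+ dendritic cells, had none in WT and 8.52, 80.3 and 0.717 CPM, at least 169-fold higher, or 26.8-fold without ∆Foxp3 2 and 300.1-fold without ∆Foxp3 3 (adjusted p = 0.0315; 0.105 without WT 1, 0.0706 without WT 2 and 0.0812 without WT 3). Ccl5, a chemokine of memory and cytotoxic T cells, overlapped between the groups at 57.5, 14.3 and 12.04 against 106, 83.4 and 40.6 CPM (1.43 ± 0.60, adjusted p = 0.100), with 2.58 without WT 1 (adjusted p = 0.00486).

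**Figure D3:**
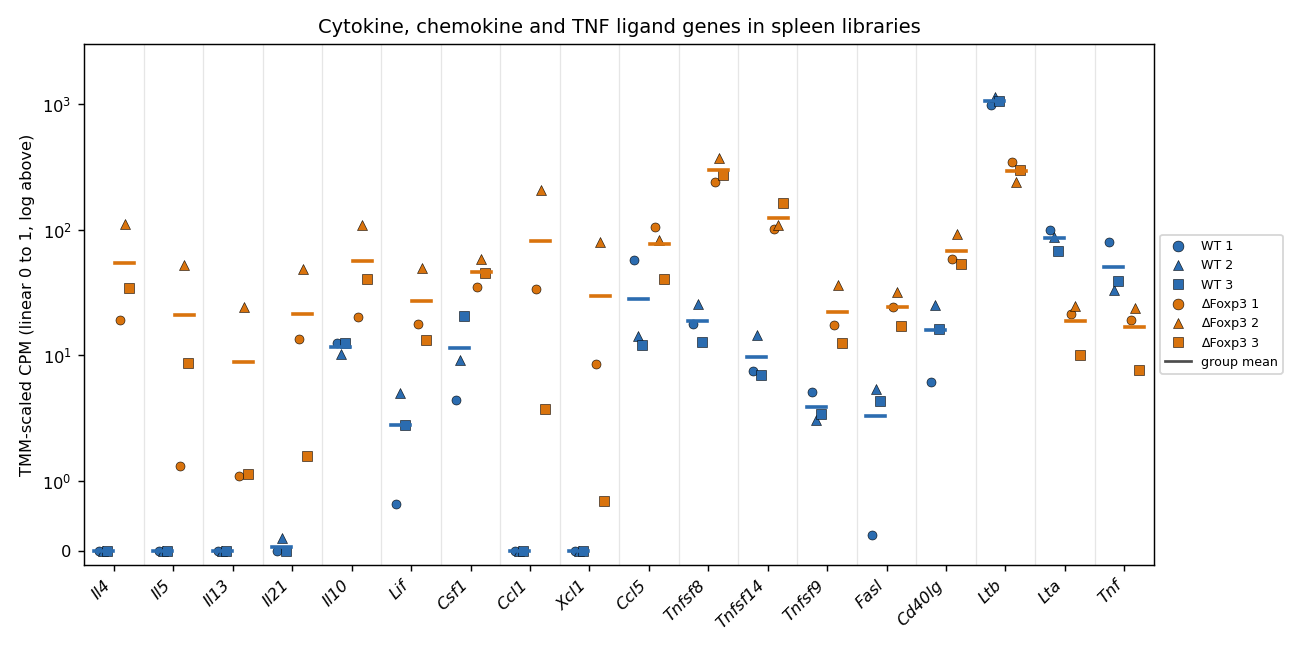
Level of 18 cytokine, chemokine and TNF family ligand genes in each spleen library, in TMM-scaled CPM on an axis that is linear from 0 to 1 and logarithmic above, with WT libraries in blue and ∆Foxp3 libraries in orange. ∆Foxp3 2, drawn as a triangle, is the highest library for Il4, Il5, Il21, Ccl1 and Xcl1, and Ltb, Lta and Tnf lie lower in all ∆Foxp3 libraries.

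The TNF family ligands parted by locus. Ltb, Tnf and Lta lie next to each other on chromosome 17, from 35194439 to 35205351, and all fell. Ltb, which joins lymphotoxin α in the membrane complex that organises lymphoid tissue, was at 979, 1126 and 1060.05 CPM in the WT libraries and 347, 239.96 and 297 CPM in the ∆Foxp3 libraries and fell by 1.84 ± 0.20 (adjusted p = 1.68e-05). Lta was at 99.9, 87.9 and 67.6 against 21.2, 24.7 and 10.04 CPM and fell by 2.21 ± 0.41 (adjusted p = 0.00124), and Tnf at 79.7, 33.1 and 38.9 against 19.02, 23.7 and 7.61 CPM and fell by 1.61 ± 0.39 (adjusted p = 0.00706). These were the 3 members lower of 12 tested, and 7 rose. Tnfsf8, which encodes CD30L, was at 17.7, 25.5 and 12.8 CPM in the WT libraries and 242, 375 and 271 CPM in the ∆Foxp3 libraries and rose by 3.99 ± 0.33 (adjusted p = 3.89e-06). Tnfsf14, which encodes LIGHT, was at 7.57, 14.6 and 6.94 against 102, 109 and 162 CPM and rose by 3.69 ± 0.28 (adjusted p = 1.57e-06). Both are costimulatory ligands of activated T cells, and all 3 ∆Foxp3 libraries lay far above the highest WT library. Fasl, the death ligand, was at 0.223, 5.36 and 4.32 against 24.04, 31.9 and 17.2 CPM and rose by 2.93 ± 0.70 (adjusted p = 0.00737), while its receptor Fas, at 107, 105.4 and 111 against 42.4, 36.2 and 18.9 CPM, fell by 1.74 ± 0.26 (adjusted p = 2.36e-04). Tnfsf13b, which encodes BAFF, the survival factor of B cells, rose by 4.13 ± 0.69 (adjusted p = 5.48e-04), or by 5.45 without WT 1, and Tnfsf9, the ligand of 4-1BB, rose by 2.49 ± 0.46 (adjusted p = 0.00109). Among the receptors of this family, 7 of 17 fell and 1 rose, and Cd27, the receptor of CD70, was at 648, 655 and 680.3 against 243, 233 and 161 CPM and fell by 1.64 ± 0.21 (adjusted p = 5.53e-05).

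Genes that lie beside the type 2 cytokines moved with them in part; these neighbours were chosen after their values were seen. Along chromosome 11, Kif3a (53567379 to 53601967), Il4 (53602982 to 53618669), Il13 (53631324 to 53634702), Rad50 (53649519 to 53707319) and Il5 (53720794 to 53725106) form the type 2 cytokine locus. Kif3a, a kinesin motor, was at 3.34, 4.65 and 7.10 CPM in the WT libraries and 25.4, 29.96 and 28.8 CPM in the ∆Foxp3 libraries and rose by 2.49 ± 0.41 (adjusted p = 4.43e-04). Rad50, a DNA repair protein whose gene holds the locus control region, was at 32.7, 30.4 and 38.3 against 73.2, 70.7 and 71.3 CPM and rose by 1.09 ± 0.15 (adjusted p = 1.51e-04). Il13 had no count in WT and 1.09, 24.5 and 1.15 CPM in the ∆Foxp3 libraries, at least 51.4-fold higher, or 7.90-fold without ∆Foxp3 2 and 85.9-fold without ∆Foxp3 3 (adjusted p = 0.0193; 0.0868 without WT 1, 0.0521 without WT 2 and 0.0600 without WT 3). Irf1, the next gene at 53770014, overlapped between the groups (-0.32 ± 0.15, adjusted p = 0.136; -0.52 without ∆Foxp3 2 (adjusted p = 0.0164)). Farther along the same chromosome, Il3, which was not tested, was at 0, 44.1 and 0 CPM in the ∆Foxp3 libraries and had no count in WT. Csf2 had none in WT and 0.219, 4.55 and 0 CPM, nearly all in ∆Foxp3 2, without which its call (adjusted p = 0.0404) was lost, as it was without any WT library (adjusted p = 0.0814 to 0.441 without WT 1, WT 2, WT 3 and ∆Foxp3 2).

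Another cluster, also singled out after its values were seen, holds the receptors of the IL-1 family on chromosome 1 between 40074079 and 40551705. Il1r1, Il1rl2, Il1rl1, Il18r1 and Il18rap were called higher, and Il1r2 was not (2.45 ± 0.87, adjusted p = 0.0620), with 4.45 without WT 1 (adjusted p = 0.00244). Il1r1 rose by 5.14 ± 1.01 (adjusted p = 0.00171), or by 7.35 without WT 1. Il1rl2, the IL-36 receptor, was at 0, 2.50 and 5.71 against 23.6, 19.7 and 27.1 CPM and rose by 3.13 ± 0.94 (adjusted p = 0.0260). Il18r1, the IL-18 binding chain, was at 56.9, 28.9 and 17.9 against 85.5, 47.5 and 215 CPM and rose by 1.74 ± 0.56 (adjusted p = 0.0366). The adjusted p of Il1rl2 was 0.0801 without WT 2, 0.0520 without ∆Foxp3 1, 0.0518 without ∆Foxp3 2 and 0.0569 without ∆Foxp3 3, and its rise 2.54 without WT 1 and 4.37 without WT 3. The adjusted p of Il18r1 was 0.116 without WT 2, 0.127 without WT 3 and 0.190 without ∆Foxp3 3, and its rise 2.36 without WT 1 and 0.94 without ∆Foxp3 3. ∆Foxp3 3 was the highest library for Il1rl1, Il18r1 and Il18rap, and not for the cytokines above.

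Of 23 tested receptors outside the common γ chain family, 9 rose and 8 fell. Il6ra and Il6st, the 2 chains of the IL-6 receptor, both fell. Il6ra was at 194, 218 and 177 CPM in the WT libraries and 24.7, 17.7 and 15.9 CPM in the ∆Foxp3 libraries and fell by 3.34 ± 0.33 (adjusted p = 1.16e-05). Il6st was at 169.7, 153 and 217 against 37.8, 35.7 and 15.8 CPM and fell by 2.61 ± 0.46 (adjusted p = 0.00135). Ifnar1, a chain of the receptor for type I interferon, was at 362, 392 and 386 against 159, 185 and 200.03 CPM and fell by 1.07 ± 0.13 (adjusted p = 4.90e-05). Il10rb, shared by the IL-10 and type III interferon receptors, fell by 1.35 ± 0.20 (adjusted p = 2.31e-04). Among the 9 receptors of the common γ chain family, Il4ra, the IL-4 receptor, was at 379, 459 and 445 against 243, 242 and 267 CPM and fell by 0.77 ± 0.18 (adjusted p = 0.00647), so the receptor fell where the cytokine rose. Il2rb, the chain shared by the IL-2 and IL-15 receptors, and Il2rg, the common chain, did not pass, at -0.37 ± 0.16 (adjusted p = 0.0954) and -0.47 ± 0.17 (adjusted p = 0.0522), the latter -0.76 without ∆Foxp3 2 (adjusted p = 5.98e-04). Crlf2, the receptor chain for TSLP, was at 29.1, 24.3 and 22.4 against 39.8, 40.03 and 83.2 CPM and rose by 1.11 ± 0.26 (adjusted p = 0.00578). Of 21 signalling genes downstream, 4 rose (2 without ∆Foxp3 3) and 5 fell (3 without WT 3), and 2 targets of the factor STAT5 went apart: Socs2 was at 101.4, 147 and 123.4 against 55.1, 53.5 and 68.2 CPM and fell by 1.07 ± 0.19 (adjusted p = 7.09e-04), while Cish was at 376, 381 and 399 against 513, 583 and 639 CPM and rose by 0.59 ± 0.15 (adjusted p = 0.0105). Stat3 and Jak1 did not pass, at 0.06 ± 0.14 (adjusted p = 0.804) and -0.13 ± 0.15 (adjusted p = 0.580).

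Genes of the T cell receptor and its proximal signals were lower more often than higher, 16 against 5 of 40 tested, and the number higher was 3 without WT 2, 3 without WT 3 and 3 without ∆Foxp3 2. Txk, a Tec family kinase of resting T cells, was at 237, 247 and 243 CPM in the WT libraries and 64.9, 41.7 and 54.7 CPM in the ∆Foxp3 libraries and fell by 2.17 ± 0.28 (adjusted p = 7.61e-05). Cd247, the ζ chain that carries the receptor's signal, was at 556, 573 and 526 against 267, 290.1 and 203 CPM and fell by 1.12 ± 0.17 (adjusted p = 2.10e-04). Dgka, which ends diacylglycerol signals, fell by 1.06 ± 0.18 (adjusted p = 5.45e-04). Zap70, the kinase that binds the ζ chain, went the other way at 341, 327 and 295 against 619.7, 773 and 502 CPM and rose by 0.98 ± 0.16 (adjusted p = 4.99e-04), and so did Themis, the adaptor of thymic selection, which rose by 1.55 ± 0.16 (adjusted p = 1.32e-05). Lck, the kinase that starts the signal, and Lcp2, the adaptor SLP-76, gave -0.22 ± 0.13 (adjusted p = 0.210) and 0.18 ± 0.13 (adjusted p = 0.339). Of the 31 early factors that receptor signals induce, 3 (9.68%) rose and 5 (16.1%) fell, against the 14.1% and 12.5% over all genes; the number lower was 2 without WT 1, 3 without ∆Foxp3 1 and 2 without ∆Foxp3 3. Nr4a1, the early response gene of antigen contact, was at 475, 321 and 165 CPM in WT and 71.9, 149 and 9.33 CPM in ∆Foxp3 libraries, each of which lay below each WT library, and was not called (-2.08 ± 0.83, adjusted p = 0.0928; -3.01 without ∆Foxp3 2). Dusp6, which dephosphorylates ERK, was at 39.5, 38.2 and 26.1 against 74.8, 105.0 and 76.2 CPM and rose by 1.30 ± 0.23 (adjusted p = 7.19e-04). Ier3, a survival gene that NF-κB induces, was at 0, 0.715 and 0.772 against 14.4, 51.5 and 66.9 CPM and rose by 6.57 ± 0.83 (adjusted p = 8.82e-05), or by 5.89 without WT 1 and 7.16 without WT 3. Nfkb1, which encodes p50 and its precursor p105, was at 182, 159 and 164 against 307, 281 and 712 CPM and rose by 1.37 ± 0.27 (adjusted p = 0.00217), whereas Ikbkb, the kinase that frees NF-κB, fell by 0.71 ± 0.15 (adjusted p = 0.00265).

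Inhibitory receptors rose for 6 of 20 tested and fell for 3. Beside Lag3, Tigit and Pdcd1, Havcr2 (TIM-3) was at 9.24, 1.25 and 3.70 against 34.3, 111 and 25.8 CPM and rose by 3.51 ± 0.74 (adjusted p = 0.00419), or by 4.51 without WT 1 and 2.60 without ∆Foxp3 2. Cd96, which shares its ligand with TIGIT, moved against it, at 317, 279 and 274 CPM in WT and 103, 95.6 and 79.6 CPM in ∆Foxp3 libraries, and fell by 1.64 ± 0.17 (adjusted p = 1.16e-05). Lilr4b had no count in WT and 94.9, 35.7 and 290.1 CPM in ∆Foxp3 libraries, and the near-identical Lilrb4a was at 5.12, 1.97 and 0.617 against 40.2, 18.7 and 66.01 CPM. Reads may be split between these 2 immunoglobulin-like receptors, so the share of each is uncertain. Lilrb4a rose by 3.95 ± 0.77 (adjusted p = 0.00256), or by 5.07 without WT 1, and Lilr4b was at least 1163-fold higher, or 468-fold without ∆Foxp3 3 (adjusted p = 0.00216).

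Cytotoxic granule genes rose for 7 of 17 tested and fell for 1. Gzma and Gzmk, the tryptase-like granzymes, were nearly absent from WT. Gzma had 3 counts in the WT group and 112, 67.1 and 60.6 CPM in the ∆Foxp3 libraries, a pooled ratio of 543-fold (exact 95% interval 185 to 2637), or 312-fold without WT 1 and at least 376-fold without WT 3 (adjusted p = 8.62e-05). Gzmk had no count in WT and 13.3, 9.83 and 1.58 CPM, at least 50.5-fold higher (adjusted p = 4.69e-04). Gzmb, the granzyme that Treg themselves can make, was at 143, 16.6 and 48.3 CPM in WT and 152, 339.9 and 85.95 CPM in ∆Foxp3 libraries, and its groups overlap (1.46 ± 0.69, adjusted p = 0.152). The difference was 2.60 without WT 1 (adjusted p = 0.0200) and 0.77 without ∆Foxp3 2. Nkg7, a granule membrane protein, was at 34.2, 35.7 and 35.8 against 446, 442 and 336 CPM and rose by 3.53 ± 0.38 (adjusted p = 2.93e-05). Of the genes of cell death, 8 of 24 rose and 4 fell. Casp1 and Casp4, the inflammatory caspases, lie side by side on chromosome 9 from 5298517 to 5336783. Casp1 was at 11.1, 11.97 and 5.40 CPM in the WT libraries and 93.1, 107 and 127 CPM in the ∆Foxp3 libraries and rose by 3.52 ± 0.29 (adjusted p = 2.54e-06). Casp4 was at 16.6, 11.97 and 7.87 against 56.4, 87.98 and 60.98 CPM and rose by 2.48 ± 0.31 (adjusted p = 4.50e-05). Bcl2a1d, an antiapoptotic protein whose gene has near-identical copies, rose by 3.58 ± 0.43 (adjusted p = 3.31e-05), while Mcl1, on which Treg survival depends, was at 144, 148 and 131 against 76.9, 52.3 and 69.3 CPM and fell by 1.09 ± 0.17 (adjusted p = 3.12e-04). Bcl2 itself was at 363, 439 and 388 against 431, 213 and 600.4 CPM, with ∆Foxp3 2 lowest and ∆Foxp3 3 highest (0.07 ± 0.35, adjusted p = 0.914).

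The cell cycle held the largest block of higher genes. A cell that leaves quiescence licenses its replication origins with the MCM helicase, copies its DNA in S phase, and then builds the kinetochores and spindle that part the chromosomes. Of the genes of origin licensing and firing 22 of 22 rose, as did 23 of 24 of DNA synthesis, 18 of 18 of homologous recombination and fork repair, 30 of 31 of the kinetochore and spindle checkpoint and 38 of 40 of the spindle and chromosome segregation. The median differences of these lists, in the same order, were 2.25, 2.10, 2.83, 3.55 and 3.39. The mitotic lists thus had larger medians than the replication lists.

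Among the ∆Foxp3 libraries, ∆Foxp3 2 was the highest for 19 of 22 licensing genes and 23 of 24 synthesis genes, and ∆Foxp3 3 the lowest for 22 and 23. Mcm3 and Mcm5, subunits of the helicase, were at 107, 108 and 51.7 against 611, 931 and 381 CPM and at 132, 92.7 and 86.3 against 644, 869.9 and 345 CPM, and rose by 2.85 ± 0.34 and 2.58 ± 0.31 (adjusted p = 5.53e-05 and 6.37e-05). Cdc45, which joins the MCM ring when an origin fires, was at 9.36, 11.97 and 16.05 CPM in the WT libraries and 120.2, 188 and 79.5 CPM in the ∆Foxp3 libraries and rose by 3.38 ± 0.29 (adjusted p = 3.87e-06). Rrm2, the regulated subunit of ribonucleotide reductase, was at 66.2, 27.5 and 54.2 against 689, 1041 and 250.2 CPM and rose by 3.74 ± 0.52 (adjusted p = 2.69e-04). Pole, the leading-strand polymerase, was at 4.46, 8.75 and 4.32 against 70.8, 101.2 and 104 CPM and rose by 3.999 ± 0.32 (adjusted p = 2.19e-06). Tyms, which makes thymidylate, rose by 3.01 ± 0.29 (adjusted p = 1.02e-05). Rpa1, a subunit of the single-strand binding protein that repair uses too, was the member of DNA synthesis that was not called, at 0.40 ± 0.19 (adjusted p = 0.143), but 0.60 without ∆Foxp3 3 (adjusted p = 0.0173). Of the repair genes, Brca1 was at 0.111, 1.61 and 1.39 against 36.3, 36.7 and 34.2 CPM and rose by 5.20 ± 0.53 (adjusted p = 1.16e-05), or by 4.60 without WT 1, and Exo1, a nuclease that trims DNA ends, rose by 5.73 ± 0.64 (adjusted p = 2.45e-05), or by 6.38 without WT 1 and 4.98 without ∆Foxp3 2.

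In the mitotic lists ∆Foxp3 3 was the lowest ∆Foxp3 library for 31 of 31 kinetochore genes and 40 of 40 spindle genes, and still above every WT library for 31 and 38. Kif4, the chromokinesin, was at 0.557, 0 and 1.39 CPM in the WT libraries and 79.1, 69.3 and 30.6 CPM in the ∆Foxp3 libraries and rose by 6.44 ± 0.58 (adjusted p = 6.56e-06), or by 7.37 without WT 3. Spc24, a subunit of the microtubule-binding complex at the kinetochore, was at 3.90, 4.65 and 6.17 against 136, 195 and 52.4 CPM and rose by 4.70 ± 0.45 (adjusted p = 1.12e-05). Cdc20, which activates the ligase that starts anaphase, was at 17.4, 16.97 and 26.7 against 296, 272 and 151 CPM and rose by 3.56 ± 0.31 (adjusted p = 4.59e-06). Mki67, whose protein Ki-67 coats mitotic chromosomes, was at 43.2, 11.6 and 31.3 against 319.6, 279 and 261 CPM and rose by 3.30 ± 0.35 (adjusted p = 2.12e-05). Cenpa, the centromeric histone, changed less, at 125, 88.8 and 94.6 against 348, 333 and 235 CPM and rose by 1.57 ± 0.20 (adjusted p = 6.37e-05). The exceptions fell. Smc4, a condensin subunit, was at 966, 1076 and 1058 CPM in WT and 514, 484 and 327 CPM in ∆Foxp3 libraries and fell by 1.23 ± 0.18 (adjusted p = 2.04e-04). Pttg1, the securin, was at 119, 95.2 and 81.9 against 75.2, 69.3 and 52.1 CPM and fell by 0.60 ± 0.20 (adjusted p = 0.0356), a call lost without WT 1, WT 2, ∆Foxp3 2 or ∆Foxp3 3 (adjusted p = 0.164 without WT 1, 0.0662 without WT 2, 0.0586 without ∆Foxp3 2 and 0.125 without ∆Foxp3 3). Smc2, the partner of Smc4 in condensin, rose instead, at 40.7, 37.3 and 25.5 against 161, 233 and 99.01 CPM, by 2.25 ± 0.28 (adjusted p = 4.45e-05).

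**Figure D4:**
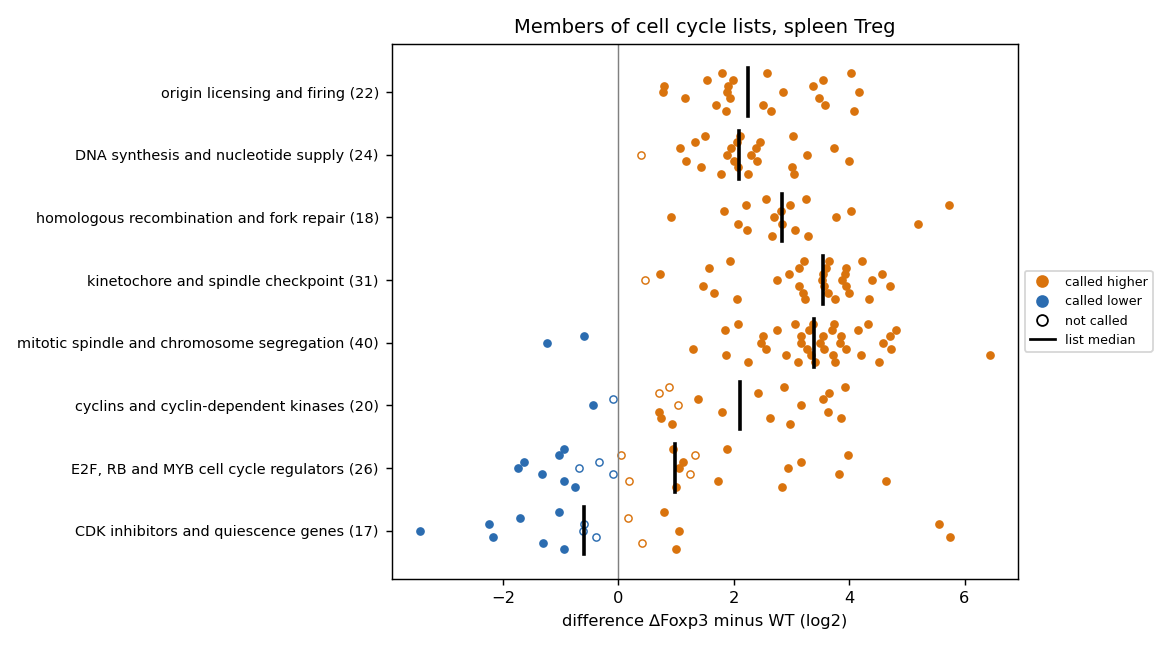
Difference between ∆Foxp3 and WT spleen Treg (log2) for each tested member of 8 cell cycle lists, one point per gene, filled where the gene was called, with a bar at the list's median. The members of the licensing, synthesis, repair and kinetochore lists all lie above 0, and in the spindle list Smc4 and Pttg1 lie below.

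Cyclins and their kinases mostly rose, while inhibitors went in both directions. Of 20 tested cyclins, kinases and partners, 15 rose and 1 fell. Ccne1, the cyclin of S phase entry, was at 15.9, 19.3 and 12.8 against 101.4, 127 and 69.7 CPM and rose by 2.63 ± 0.30 (adjusted p = 2.64e-05). Ccnb2, a mitotic cyclin, was at 55.9, 30.2 and 34.3 against 433, 335 and 189.6 CPM and rose by 2.98 ± 0.37 (adjusted p = 9.83e-05). Cdk6, the G1 kinase, was at 189, 223 and 191 CPM in WT and 577, 768 and 743 CPM in ∆Foxp3 libraries and rose by 1.79 ± 0.15 (adjusted p = 3.73e-06), while Ccnd3, a cyclin that binds it, was at 617, 570.3 and 596 against 648, 478 and 549 CPM (-0.09 ± 0.14, adjusted p = 0.676). Of 17 tested CDK inhibitors and quiescence genes 5 rose and 7 fell, and the inhibitors p27 and p21 moved apart. Cdkn1b, which encodes p27, the inhibitor of quiescent cells, was at 276, 224 and 215 CPM in the WT libraries and 50.3, 48.7 and 52.8 CPM in the ∆Foxp3 libraries and fell by 2.23 ± 0.15 (adjusted p = 5.33e-07). Cdkn1a, which encodes p21, was at 0.111, 1.61 and 1.54 against 25.6, 92.3 and 25.7 CPM and rose by 5.56 ± 0.87 (adjusted p = 6.43e-04), or by 4.93 without WT 1 and 4.67 without ∆Foxp3 2. Among the E2F, RB, MYB and MYC-network regulators 12 of 26 rose and 7 fell, the latter 4 without WT 1. Foxm1, which switches on mitotic genes, rose by 2.93 ± 0.35 (adjusted p = 3.31e-05), and Mxd1 and Mxd3, both partners of MAX, fell by 1.74 ± 0.25 and rose by 4.65 ± 0.40 (adjusted p = 1.80e-04 and 3.87e-06). Myc did not rise: it was at 363, 279 and 221 against 159, 199 and 157 CPM and fell by 0.75 ± 0.22 (adjusted p = 0.0220), a call lost without WT 1, ∆Foxp3 1 or ∆Foxp3 3 (adjusted p = 0.110 without WT 1, 0.0891 without ∆Foxp3 1 and 0.0637 without ∆Foxp3 3).

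Of the DNA methylation and chromatin regulators, 17 of 24 rose and 2 fell. Dnmt1, which restores methylation after replication, was at 64.04, 89.9 and 122.8 CPM in WT and 407, 417 and 313 CPM in ∆Foxp3 libraries and rose by 2.04 ± 0.22 (adjusted p = 1.54e-05). Uhrf1, which brings Dnmt1 to new DNA, was at 12.6, 16.6 and 24.8 CPM in the WT libraries and 313, 399.8 and 183 CPM in the ∆Foxp3 libraries and rose by 4.05 ± 0.33 (adjusted p = 3.24e-06). Tet3, which oxidises methylated cytosine, was at 178, 199 and 207 against 95.7, 107 and 105.3 CPM and fell by 0.92 ± 0.14 (adjusted p = 2.02e-04). Dnmt3a, which adds new methylation, did not pass (-0.22 ± 0.17, adjusted p = 0.364).

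The upstream DNA of mitotic genes shows elements that are known from their promoters. In the 250 bases before the start site, taken from RefSeq (GRCm38.p6), the letters CCAAT, the box bound by NF-Y, were searched on both strands, and so were the letters TTTGAA, the cell cycle homology region bound by the DREAM and MuvB complexes. CCAAT stood in 72.2% of 36 promoters of the spindle list, against 33.8% of all promoters, and TTTGAA in 50% against 16.0%. In the kinetochore list the shares were 61.3% and 19.4% of 31 promoters, the latter near the share of all promoters. CCAAT was not particular to mitotic genes. It stood in 78.3% of 23 promoters of cholesterol synthesis and uptake and 82.6% of 23 promoters of folding in the endoplasmic reticulum. The E2F sites TTTGGCGC or TTTCCCGC stood in 26.3% of 19 promoters of the licensing list, against 1.30% of all. In the DNA synthesis list they stood in 4.17% of 24 promoters. These are matches of letters and no sites of binding. The promoters of 2 genes described above are shown because they hold both elements, with both motifs in capitals: that of Ccnb2 (chr9:70421555-70421804, minus strand) has 4 matches, and that of Cdc20 (chr4:118437344-118437593, minus strand) has 3.
Ccnb2: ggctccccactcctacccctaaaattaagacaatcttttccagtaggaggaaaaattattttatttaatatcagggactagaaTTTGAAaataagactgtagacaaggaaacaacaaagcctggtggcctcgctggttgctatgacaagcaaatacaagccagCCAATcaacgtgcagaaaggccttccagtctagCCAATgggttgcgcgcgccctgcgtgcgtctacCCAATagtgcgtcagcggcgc
Cdc20: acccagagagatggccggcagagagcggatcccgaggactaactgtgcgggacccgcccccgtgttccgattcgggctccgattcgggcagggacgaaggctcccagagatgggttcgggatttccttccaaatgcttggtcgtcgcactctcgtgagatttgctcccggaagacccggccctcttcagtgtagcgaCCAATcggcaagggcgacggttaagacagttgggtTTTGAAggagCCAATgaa

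Of 31 genes of glucose uptake and glycolysis, 17 rose and 4 fell, with a median difference of 0.63, and the number lower was 2 without WT 2 and 2 without ∆Foxp3 3. Aldoa (aldolase) was at 493, 418 and 453 CPM in the WT libraries and 1753, 1887 and 1189.97 CPM in the ∆Foxp3 libraries and rose by 1.82 ± 0.18 (adjusted p = 8.15e-06). Gapdh was at 285, 245 and 241 against 832, 947 and 657 CPM and rose by 1.66 ± 0.17 (adjusted p = 9.56e-06). Pkm, pyruvate kinase, rose by 1.36 ± 0.15 (adjusted p = 1.80e-05). Ldha, the lactate dehydrogenase subunit of glycolytic cells, was at 1224, 1182 and 1058 against 2795, 3697 and 1923 CPM and rose by 1.28 ± 0.20 (adjusted p = 2.72e-04). Eno3, the muscle form of enolase, and P4ha1, a prolyl hydroxylase of collagen that hypoxia induces, went the other way, from 89.8, 80.9 and 71.4 to 13.8, 20.1 and 5.31 CPM and from 173, 172 and 153 to 39.1, 49.1 and 28.7 CPM in the WT and ∆Foxp3 libraries, and fell by 2.66 ± 0.43 and 2.10 ± 0.24 (adjusted p = 4.66e-04 and 2.78e-05). Slc2a3, a glucose transporter, did not pass (-0.57 ± 0.30, adjusted p = 0.187). Egln3, a prolyl hydroxylase that marks HIF proteins for decay and is itself a HIF target, rose by 3.14 ± 0.46 (adjusted p = 1.99e-04), or by 3.97 without WT 3. The letters ACGTG, the core of the hypoxia response element, stood in 45.2% of 42 promoters of this list, against 16.6% of all. The share was not particular to this list. It was 57.1% of 14 promoters of cyclins and their kinases and 50% of 12 promoters of amino acid and iron transporters. The promoter of Pgk1, which rose by 2.03 ± 0.20 (adjusted p = 9.56e-06) from 56.9, 51.5 and 53.2 CPM in WT to 242, 253 and 164 CPM in ∆Foxp3 libraries, is shown with its 2 matches in capitals (chrX:106186850-106187099, plus strand).
Pgk1: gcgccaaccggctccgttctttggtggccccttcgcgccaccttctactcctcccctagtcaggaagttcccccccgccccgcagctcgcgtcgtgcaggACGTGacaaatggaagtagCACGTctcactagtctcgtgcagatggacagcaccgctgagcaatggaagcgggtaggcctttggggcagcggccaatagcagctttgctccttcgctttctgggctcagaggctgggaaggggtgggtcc

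Genes that supply building blocks rose in part. Of 13 genes of serine and one-carbon metabolism 7 rose and 1 fell: Psat1 and Phgdh, which make serine from a glycolytic intermediate, were at 104, 76.1 and 64.7 against 265, 444 and 178 CPM and at 149, 115 and 104 against 254, 385 and 203 CPM, and rose by 1.85 ± 0.29 and 1.19 ± 0.21 (adjusted p = 4.05e-04 and 8.45e-04). Of 22 genes of purine and pyrimidine synthesis 14 rose and 2 fell, the number higher being 7 without WT 2, 9 without WT 3 and 6 without ∆Foxp3 2. Cad, the enzyme that starts pyrimidine synthesis, was at 27.7, 33.1 and 26.2 against 88.7, 134 and 139 CPM and rose by 2.06 ± 0.22 (adjusted p = 1.32e-05), while Ctps2, a CTP synthase, fell by 1.39 ± 0.15 (adjusted p = 1.72e-05). Tfrc, the transferrin receptor that brings in iron, was at 18.5, 31.6 and 25.9 CPM in the WT libraries and 224, 175 and 84.8 CPM in the ∆Foxp3 libraries and rose by 2.68 ± 0.31 (adjusted p = 3.16e-05), whereas Slc1a5 and Slc3a2, amino acid transporter chains, did not pass (0.07 ± 0.16, adjusted p = 0.781 and 0.15 ± 0.20, adjusted p = 0.617). In the pentose phosphate pathway 1 of 9 (11.1%) rose, against 14.1% over all tested genes. In the TCA cycle 5 of 23 (21.7%) rose (3 without WT 2 and 3 without ∆Foxp3 2), of which Fh1 (fumarase) rose by 1.21 ± 0.22 (adjusted p = 0.00101). Subunits of the respiratory chain had a median difference of 0.39 with 16 of 36 higher, a number that was 25 without WT 1, 4 without WT 2, 8 without WT 3 and 5 without ∆Foxp3 2. Of 25 genes of cholesterol synthesis and uptake 2 (8%) rose and 4 (16%) fell, the latter number 8 without ∆Foxp3 2. Over all tested genes 14.1% rose and 12.5% fell. Srebf2, the factor that drives this pathway, fell by 1.11 ± 0.18 (adjusted p = 3.84e-04). Of the genes of fatty acid metabolism 9 of 23 rose and 1 fell, and Fabp5, a fatty acid carrier, rose by 2.28 ± 0.39 (adjusted p = 5.88e-04).

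Lists of protein turnover had small median differences, 0.57 for folding in the endoplasmic reticulum and 0.47 for ribosome biogenesis. Single members of the folding list ranged from -1.11 to 2.82. The proteasome list had 17 of 31 members higher and none lower, with a median of 0.50, and the number was 8 without WT 2, 8 without WT 3 and 7 without ∆Foxp3 2. For folding in the endoplasmic reticulum, 10 of 25 rose, 6 without WT 3 and 6 without ∆Foxp3 2, and 3 fell. Canx (calnexin) rose by 0.96 ± 0.18 (adjusted p = 0.00149). Dnajb9, a target of the unfolded protein response, fell by 1.11 ± 0.21 (adjusted p = 0.00135). Of 26 genes of ribosome biogenesis 7 rose, 3 without WT 2, 2 without WT 3 and 2 without ∆Foxp3 2. Structural proteins of activated cells rose more: of 21 S100, annexin and galectin genes and their companions 12 rose, 7 without WT 2 and 7 without WT 3, and 1 fell. Vim (vimentin) was at 1115, 813 and 722 CPM in the WT libraries and 2466, 2620.1 and 3897 CPM in the ∆Foxp3 libraries and rose by 1.76 ± 0.26 (adjusted p = 2.20e-04). Lgals1, a galectin of activated and regulatory T cells, was at 532, 273 and 278 against 997, 1603 and 1101 CPM and rose by 1.77 ± 0.35 (adjusted p = 0.00264). Anxa1, an anti-inflammatory annexin, was at 0, 0 and 1.23 against 19.5, 16.8 and 42.8 CPM and rose by 6.01 ± 1.07 (adjusted p = 0.00147), or by 5.33 without WT 1 and 10.14 without WT 3. Its call was lost with limma voom, an alternative test (adjusted p = 0.135).

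Genes that type I interferon induces were lower. Interferon binds a receptor of which Ifnar1 is a chain, and a complex that holds STAT2 and IRF9 then binds the interferon-stimulated response element before these genes. Of 46 tested members, 30 fell and 1 rose, with a median of -1.21. Ifit1, which binds foreign RNA caps, was at 115, 119 and 116 CPM in the WT libraries and 12.5, 14.9 and 2.15 CPM in the ∆Foxp3 libraries and fell by 3.62 ± 0.61 (adjusted p = 0.00103). Ifit3, which joins it, was at 48.8, 63.8 and 81.3 against 3.28, 4.79 and 1.58 CPM and fell by 4.38 ± 0.92 (adjusted p = 0.00418). Usp18, which removes ISG15 and also damps interferon signals, was at 162, 84.9 and 139 against 15.7, 12.2 and 15.1 CPM and fell by 3.16 ± 0.43 (adjusted p = 1.64e-04), and Oasl2 fell by 3.65 ± 0.63 (adjusted p = 7.68e-04). Ifi27l2a, one of the most abundant members, was at 2009, 1246 and 1301 CPM in WT and 283, 477 and 256 CPM in ∆Foxp3 libraries and fell by 2.17 ± 0.23 (adjusted p = 1.61e-05). Sp100, a nuclear body protein, fell by 1.17 ± 0.14 (adjusted p = 2.90e-05). Every ∆Foxp3 library was below every WT library for each of these 6 genes. The exception was Ly6a, which encodes Sca-1, a surface protein of activated T cells that interferons also induce: it was at 196, 228 and 283 against 678, 901 and 759 CPM and rose by 1.73 ± 0.20 (adjusted p = 2.42e-05). Stat2, a carrier of the signal, was at 88.5, 83.97 and 106 against 57.9, 63.05 and 49.9 CPM and fell by 0.70 ± 0.16 (adjusted p = 0.00486).

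These genes include 2 clusters in the genome, and some neighbours below were chosen after their values were seen. On chromosome 1, Ifi206, Ifi214, Ifi213, Ifi209 and Ifi208 lie in a row from 173468485 to 173698395. They encode sensors of DNA of the p200 family, whose members resemble one another, so that reads may be shared between them. All 5 fell: Ifi214 was at 49.8, 46.1 and 68.97 CPM in the WT libraries and 2.40, 4.79 and 1.15 CPM in the ∆Foxp3 libraries and fell by 4.37 ± 0.44 (adjusted p = 9.56e-06), and fell by 5.000 without ∆Foxp3 2. Ifi213 fell by 3.26 ± 0.24 (adjusted p = 1.15e-06), Ifi209 fell by 2.40 ± 0.21 (adjusted p = 4.52e-06), Ifi206 fell by 2.33 ± 0.25 (adjusted p = 1.72e-05) and Ifi208 fell by 2.15 ± 0.35 (adjusted p = 6.11e-04). On chromosome 19, between 34550694 and 34650009, Ifit3, Ifit1bl1 and Ifit1 fell, while Ifit2, at the edge of the cluster, was at 43.9, 39.1 and 63.1 against 32.8, 37.2 and 29.1 CPM (-0.56 ± 0.28, adjusted p = 0.156).

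**Figure D5:**
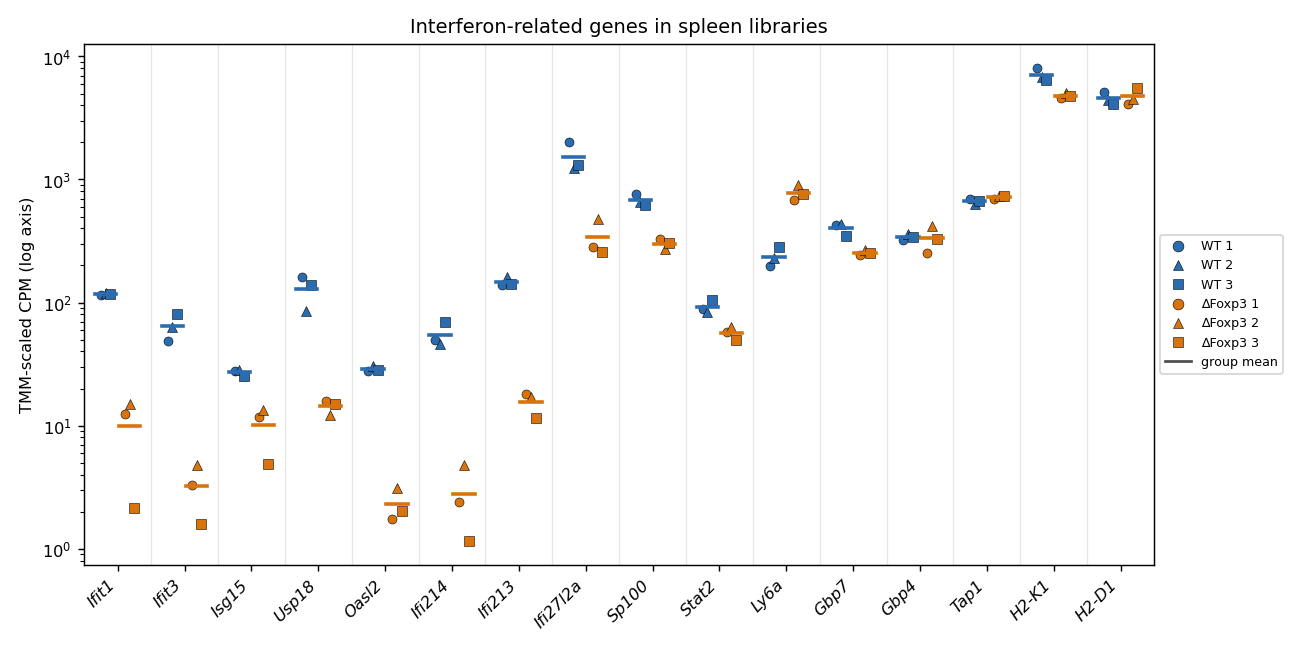
Level of 16 interferon-related genes in each spleen library, in TMM-scaled CPM on a log axis, WT libraries in blue and ∆Foxp3 libraries in orange, with a bar at each group's mean. Ifit1, Usp18, Oasl2 and the Ifi200 genes lie lower in all 3 ∆Foxp3 libraries, Ly6a lies higher, and Tap1, Gbp4 and H2-D1 overlap.

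Genes that interferon γ also induces were looked at apart. Of the 19 tested interferon-inducible GTPases, which attack the vacuoles of intracellular microbes, 6 fell and 1 rose; the number lower was 3 without ∆Foxp3 1. Gbp7 was at 428, 435 and 346 against 241, 269 and 251 CPM and fell by 0.67 ± 0.14 (adjusted p = 0.00244), and Irgm2 fell by 1.29 ± 0.20 (adjusted p = 3.32e-04), while Gbp4 and Iigp1 overlapped between the groups (-0.03 ± 0.18, adjusted p = 0.930 and 0.08 ± 0.29, adjusted p = 0.872). Of 20 genes of MHC class I presentation 5 fell and 1 rose, the number lower being 2 without WT 1, 2 without ∆Foxp3 1 and 3 without ∆Foxp3 3. H2-K1, a class I heavy chain, was at 8109.9, 6818 and 6419 against 4564, 5085 and 4737 CPM and fell by 0.57 ± 0.12 (adjusted p = 0.00359), whereas H2-D1, the other classical chain of this strain, and Tap1, the peptide transporter, gave 0.06 ± 0.13 (adjusted p = 0.790) and 0.11 ± 0.14 (adjusted p = 0.610). Classical and nonclassical class I genes are alike in sequence, and reads may be shared between them.

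The upstream DNA of the interferon genes was searched in the same way. The letters GAAANNGAA, the core of the response element, searched on both strands in the 250 bases before the start, stood in 44.4% of 45 promoters of the type I list and in 83.3% of 12 promoters of the GTPases, against 7.13% of all promoters. Isg15, an ubiquitin-like protein named only for its promoter, after its values were seen, was at 27.7, 28.2 and 25.3 against 11.8, 13.4 and 4.88 CPM and fell by 1.45 ± 0.42 (adjusted p = 0.0184) (0.0627 without ∆Foxp3 3). The promoters of Ifit3 (chr19:34583279-34583528, plus strand) and Isg15 (chr4:156200819-156201068, minus strand) are shown with the matches in capitals because they carry 3 each, spaced in Ifit3 and overlapping in Isg15.
Ifit3: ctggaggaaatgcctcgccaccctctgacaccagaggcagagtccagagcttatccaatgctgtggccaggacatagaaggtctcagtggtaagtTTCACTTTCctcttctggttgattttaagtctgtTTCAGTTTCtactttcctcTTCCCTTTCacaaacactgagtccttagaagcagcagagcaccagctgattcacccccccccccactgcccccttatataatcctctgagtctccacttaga
Isg15: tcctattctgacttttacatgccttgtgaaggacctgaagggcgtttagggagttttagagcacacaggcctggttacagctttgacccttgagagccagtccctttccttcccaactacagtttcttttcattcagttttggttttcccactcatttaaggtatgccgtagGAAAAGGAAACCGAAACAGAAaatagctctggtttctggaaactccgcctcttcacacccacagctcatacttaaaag

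Markers of other cells differed between the groups and are given here as measured. Of 15 tested markers of macrophages, monocytes and dendritic cells 4 were called higher (2 without WT 2, 2 without WT 3, 2 without ∆Foxp3 1, 2 without ∆Foxp3 2 and 2 without ∆Foxp3 3), and their levels summed to 69.4 to 287 CPM per WT library and 417 to 771 CPM per ∆Foxp3 library. H2-Aa and H2-Ab1, chains of MHC class II, were at 3.90, 0.357 and 2.62 against 32.3, 51.3 and 22.96 CPM and 12.03, 0.715 and 2.93 against 38.9, 117 and 45.6 CPM, with adjusted p = 0.0468 and 0.0481, calls that were lost without any 1 of the 6 libraries for H2-Aa (adjusted p = 0.0721 to 0.131 without WT 1, WT 2, WT 3, ∆Foxp3 1, ∆Foxp3 2 and ∆Foxp3 3) and of 5 for H2-Ab1 (adjusted p = 0.0699 to 0.161 without WT 2, WT 3, ∆Foxp3 1, ∆Foxp3 2 and ∆Foxp3 3). Vcam1, of splenic macrophages, was at 18.2, 27.9 and 8.33 against 251, 21.6 and 104 CPM, rose by 2.80 ± 0.68 (adjusted p = 0.00986) with groups that overlap, and was 1.84 without ∆Foxp3 1. Its call was lost in the same F test with no low-count filter (adjusted p = 0.0869). The remaining member called higher was Xcr1, given above with the chemokine receptors. Csf1r, C1qa and Adgre1, which define macrophages, were at 28.6, 27.2 and 9.10 against 109.9, 13.2 and 49.9 CPM, 31.5, 14.5 and 5.25 against 51.8, 4.08 and 17.6 CPM and 11.7, 4.11 and 5.71 against 24.9, 2.40 and 11.3 CPM, in each case highest in ∆Foxp3 1 of the ∆Foxp3 libraries. The part of these cells in the results above was not tested. For erythroid cells and platelets the sums were 10.96 to 18.04 CPM and 14.9 to 437 CPM, the highest in ∆Foxp3 1, as for Hbb-bs, at 217, 5.51 and 6.46 CPM in the ∆Foxp3 libraries. Hbb-bs was not called, but 2 of the 8 tested members of this list were called higher, 1 without ∆Foxp3 1. For CD8, NK and γδ T cells the sums were 56.6 to 66.9 CPM and 68.9 to 117 CPM, with Trgc2 at 2.78, 12.5 and 14.2 against 21.4, 29.96 and 93.4 CPM. Trgc2 was the 1 of 6 tested members called higher, and its call was lost without ∆Foxp3 3 (adjusted p = 0.0886). For endothelium and stroma the sums were 3.86 to 5.002 CPM and 26.1 to 30.2 CPM, with Fn1 at 0, 0 and 2.62 against 22.7, 17.98 and 16.5 CPM, and for granulocytes and mast cells 6.07 to 18.7 CPM and 7.75 to 20.1 CPM. Fn1 was the 1 of 2 tested endothelium and stroma markers that was called higher. Of 5 tested B and plasma cell markers 3 were called lower and 0 higher. The list summed to 1135 to 1311 CPM per WT library and 80.1 to 161 CPM per ∆Foxp3 library, nearly all from Ighm (1243, 1239.7 and 1088 against 130.1, 134 and 50.5 CPM), which fell by 3.51 ± 0.34 (adjusted p = 1.46e-05), while Ms4a1 and Mzb1 were at or near 0, as given above. Ighm did not fall alone: the lowest difference among the 5 tested was -4.62, that of another member, and the median was -3.51.

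The difference in the spleen was set beside that in the lung to find where it was not shared. Of 13295 genes, 104 had a difference that was higher in the spleen and 19 one that was lower. The count of 123 fell to 49 without spleen ∆Foxp3 1 and to 72 without spleen WT 2. Among the 123 were 13 of 31 kinetochore genes and 19 of 40 spindle genes, all higher in the spleen. Kif4 differed by 5.02 ± 0.71 (adjusted p = 0.00521) and Spc24 by 3.48 ± 0.56 (adjusted p = 0.0121), with lung differences of 1.42 and 1.22. Btg2, which fell in the spleen, had a lung difference of 0.82 and differed by -2.98 ± 0.31 (adjusted p = 4.96e-04). Egr2, an early factor of receptor signals, was at 63.6, 60.7 and 38.1 CPM in WT and 65.6, 82.2 and 46.9 CPM in ∆Foxp3 spleen libraries, and at 1.72, 0 and 0.879 and 102, 64.4 and 44.01 CPM in the lung, a difference of -5.97 ± 0.66 (adjusted p = 7.58e-04). Organ, allele and tissue preparation differ together between these pairs of groups and cannot be told apart.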

How the data were processed

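RNA of 12 libraries of sorted mouse Treg (spleen and lung, WT and ∆Foxp3, 3 each) was used, and the 6 spleen libraries make up the comparison. The authors deposited whole-number read counts per gene for 55011 genes. The tools and build were STAR 2.7.3a, Subread 2.0.0 (featureCounts) and mm10, per the submitters' processing notes. The gene models and strandedness are not given in the sources used, and reads of antisense or overlapping genes may be shared. Per the labels' protocols, libraries were made by Smart-seq2 with no molecular identifiers, so amplified reads are not independent molecules.

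Genes were kept by filterByExpr, scaled by TMM and tested in one edgeR 4.0.16 quasi-likelihood fit (R 4.3.3, robust) over all 12 libraries with a mean per group. The spleen contrast and the spleen minus lung interaction were each adjusted by Benjamini-Hochberg over 13295 genes. Levels are TMM-scaled CPM. The fit was checked on simulated counts. Alternatives used DESeq2 1.42.0, limma 3.58.1, other scalings and filters and left-out libraries. The comparison and the 53 gene lists and 7 marker lists were chosen with earlier results of these data known. Named were targeted and sorting genes, the 12 largest differences each way, up to 4 called members per list and direction, abundant uncalled members, called members beyond 2 log2 units, and any member of short lists; others are said to be chosen after their values were seen. Coordinates are from GENCODE on GRCm38, the same assembly as mm10, and 13058 of the tested symbols matched it. Promoters are from RefSeq (GRCm38.p6). Some genes that the naming rule covers are not reported here.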

Additional observations from a re-analysis of the deposited data

Results flagged for a closer look

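Genes named above are listed here where the genotype difference in the spleen differed from that in the lung, in the interaction term of the same edgeR fit (adjusted p under 0.05). Each value is the spleen difference minus the lung difference on the log2 scale. The deletion alleles of the 2 tissues are labelled differently, so allele and organ cannot be told apart. The count over all genes was 123, 49 without spleen ∆Foxp3 1 and 72 without spleen WT 2.

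Among genes of replication, mitosis and their regulators, the difference was higher in the spleen for Brca1, with 3.84 ± 0.67 (adjusted p = 0.0137; 5.20 in the spleen and 1.36 in the lung), Cdc20, with 2.34 ± 0.40 (adjusted p = 0.0137; 3.56 in the spleen and 1.22 in the lung) and Cdc45, with 2.02 ± 0.38 (adjusted p = 0.0212; 3.38 in the spleen and 1.36 in the lung). The same held for Cenpa, with 1.65 ± 0.28 (adjusted p = 0.0121; 1.57 in the spleen and -0.08 in the lung), Exo1, with 3.90 ± 0.80 (adjusted p = 0.0347; 5.73 in the spleen and 1.83 in the lung) and Kif4, with 5.02 ± 0.71 (adjusted p = 0.00521; 6.44 in the spleen and 1.42 in the lung). In this group were also Mki67, with 2.50 ± 0.46 (adjusted p = 0.0210; 3.30 in the spleen and 0.80 in the lung), Mxd3, with 3.69 ± 0.51 (adjusted p = 0.00395; 4.65 in the spleen and 0.95 in the lung) and Pole, with 2.66 ± 0.41 (adjusted p = 0.00600; 3.999 in the spleen and 1.34 in the lung). It also was for Spc24, with 3.48 ± 0.56 (adjusted p = 0.0121; 4.70 in the spleen and 1.22 in the lung) and Uhrf1, with 2.83 ± 0.42 (adjusted p = 0.00599; 4.05 in the spleen and 1.22 in the lung). Outside the cell cycle it was higher for Gcnt1, with 3.82 ± 0.75 (adjusted p = 0.0307; 5.52 in the spleen and 1.70 in the lung) and Nfil3, with 3.19 ± 0.62 (adjusted p = 0.0267; 3.93 in the spleen and 0.74 in the lung).

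The difference was lower in the spleen for Btg2, with -2.98 ± 0.31 (adjusted p = 4.96e-04; -2.17 in the spleen and 0.82 in the lung), Cdkn1b, with -0.96 ± 0.20 (adjusted p = 0.0357; -2.23 in the spleen and -1.28 in the lung) and Cish, with -1.47 ± 0.22 (adjusted p = 0.00537; 0.59 in the spleen and 2.05 in the lung). The same held for Dusp6, with -1.94 ± 0.33 (adjusted p = 0.0121; 1.30 in the spleen and 3.23 in the lung), Egr2, with -5.97 ± 0.66 (adjusted p = 7.58e-04; 0.26 in the spleen and 6.23 in the lung) and Gt(ROSA)26Sor, with -6.51 ± 0.54 (adjusted p = 5.54e-05; -5.85 in the spleen and 0.66 in the lung). In this group were also Socs2, with -1.26 ± 0.26 (adjusted p = 0.0338; -1.07 in the spleen and 0.19 in the lung) and Tnf, with -2.97 ± 0.56 (adjusted p = 0.0212; -1.61 in the spleen and 1.36 in the lung).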

How the results depend on the processing

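Against 3540 genes called in the spleen, 3511 were called with DESeq2's size factors in edgeR, 3953 with DESeq2 and 4115 with limma voom. The count was 2287 when the lung libraries were left out of the fit, where the spread rests on fewer libraries, and 1648 when a fold of 1.5 had to be exceeded. Leaving out single libraries gave 2710 to 3575. Of the genes whose difference departed from that in the lung, 123 as reported, 304 were called by DESeq2, 219 by limma voom, 363 with no low-count filter, 50 against a fold of 1.5 and 49 to 178 with single libraries left out. The cause was not tested.

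Same-numbered spleen libraries of the 2 genotypes did not deviate together (correlations -0.00 to 0.07, 1 of 3 best with its own number). With 3 libraries per group this cannot exclude pairing, and same-numbered spleen and lung libraries were not compared. With the replicate number as a block, 3314 genes were called in the spleen and 74 differed from the lung. Of 195 called genes named in the text, none changed sign under a setting in which it was tested (189 to 195 genes). The call was lost for 11 with limma voom, for 14 with no filter, for 3 with the block, for 4 with only the spleen libraries, for 32 against a fold of 1.5 and for at most 14 with any single library left out. DESeq2 lost Il1rl2 only, and the scaling by library totals and the fit without mitochondrial, ribosomal and receptor genes each lost H2-Ab1 only. Of 46 named genes that were not called, up to 9 were called under another setting, the most with limma voom. Of 50 list counts of at least 5, 25 moved by over 1.5 times against a fold of 1.5. Differences near the level of 3 counts in a library, 0.334 to 0.719 CPM, rest on few reads.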

Other observations

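Among the largest differences were genes outside every list above. Cd55, which encodes the decay-accelerating factor that shields cells from complement, was at 296, 249 and 234 CPM in the WT libraries and 11.8, 7.91 and 8.61 CPM in the ∆Foxp3 libraries and fell by 4.78 ± 0.28 (adjusted p = 3.67e-07). Sdc4, a heparan sulphate proteoglycan of the cell surface, was at 88.4, 71.3 and 66.7 against 1.97, 6.95 and 3.30 CPM and fell by 4.24 ± 0.40 (adjusted p = 6.54e-06). Prg4, which encodes lubricin, was at 23.9, 36.98 and 47.5 against 1.09, 2.40 and 0.574 CPM and fell by 4.81 ± 0.61 (adjusted p = 5.58e-05), and fell by 5.46 without ∆Foxp3 2. H2-Ob, the β chain of H2-O, which tunes peptide loading of MHC class II, was at 124, 139 and 145 against 15.7, 2.16 and 5.17 CPM and fell by 4.15 ± 0.58 (adjusted p = 2.75e-04), and fell by 5.10 without ∆Foxp3 1, while the class II chains of the marker list were low in WT. Gsta4, a glutathione transferase that clears lipid peroxidation products, was at 71.8, 65.9 and 59.4 against 8.52, 2.16 and 4.30 CPM and fell by 3.71 ± 0.40 (adjusted p = 1.55e-05). In the other direction, Bace2, an aspartyl protease, had 1 count in WT and 17.3, 23.01 and 33.3 CPM in the ∆Foxp3 libraries, a pooled ratio of 545-fold (exact 95% interval 97.3 to 21591), or 313-fold without WT 1 and at least 133-fold without WT 2 (adjusted p = 1.56e-04). Smpdl3b, a membrane phosphodiesterase that damps Toll-like receptor signals, was at 0, 1.25 and 0 against 29.3, 29.96 and 41.5 CPM and rose by 6.50 ± 0.78 (adjusted p = 4.75e-05), or by 5.82 without WT 1 and 10.50 without WT 2.

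The genes of the GTPases of immunity-associated proteins lie in a row on chromosome 6 (48647234 to 48770851) and keep lymphocytes alive; they were singled out after their values were seen. Gimap3 was at 1937, 1967 and 2128 CPM in the WT libraries and 1195, 727 and 1056 CPM in the ∆Foxp3 libraries and fell by 1.02 ± 0.19 (adjusted p = 0.00114). Gimap4 and Gimap6, at 1585, 1457 and 1479 against 1007, 813 and 684 CPM and at 1236, 1136 and 1090.3 against 687, 484 and 622 CPM, fell by 0.85 ± 0.15 and 0.95 ± 0.17 (adjusted p = 7.04e-04 and 9.52e-04), and Gimap8 and Gimap9 fell by 0.75 ± 0.17 and 0.85 ± 0.15 (adjusted p = 0.00386 and 8.00e-04). Gimap5, within the same row, was at 252, 227 and 219 against 248, 185 and 313 CPM (0.10 ± 0.18, adjusted p = 0.736), and Gimap7 did not pass (-0.73 ± 0.27, adjusted p = 0.0617; -1.05 without ∆Foxp3 1 (adjusted p = 0.0119)). Malat1, an abundant nuclear noncoding RNA that was also singled out after its values were seen, was at 2660.1, 2334 and 1912 against 581, 575 and 647 CPM and fell by 1.94 ± 0.16 (adjusted p = 2.54e-06).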
